A study of Mus musculus with 10 samples.

Results

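The 5 libraries described here are the DMSO-treated cultures of adipose stem and precursor cells (ASPCs), 5 of the 10 libraries of the series. They were chosen by their label alone, and the 5 cultures that received FICZ, a ligand of the aryl hydrocarbon receptor (AHR), are not compared with them. The cells came from perigonadal white adipose tissue of mice labelled WT. CD45-CD31-Pdgfra+ cells of the stromovascular fraction were sorted, grown without passaging in a low-serum medium that contained FGF, insulin, transferrin and selenium, and lysed 6 hr after DMSO, the vehicle, was added to confluent cultures. The labels give neither the age nor the sex of the mice, and do not say whether the 5 replicates came from separate mice or separate cultures, so the spread given below is that between these libraries. All cultures saw the sort, the medium, confluence and DMSO, and uncultured cells are not part of the data.

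ASPCs are fibroblast-like cells of the adipose stroma that lay down extracellular matrix, divide, and can become adipocytes. Their surface receptor PDGFRA, the receptor for platelet-derived growth factor used in the sort, marks most stromal fibroblasts of fat. DPP4 marks an interstitial, multipotent progenitor state, whereas PPARG is the nuclear receptor that drives adipocyte differentiation. In visceral fat the same stroma also holds mesothelial cells, mural cells, endothelial cells and leukocytes, and the sort was set up to remove the last of these and the endothelial cells.

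Library totals ranged from 38328611 to 50210111 counts, and levels are given as counts per 1000000 counts of the library total (CPM). A floor was set at 3 counts, worth 0.0597 to 0.0783 CPM in these libraries. It covers counting error only. Of 18607 genes with a count in any of the 5 libraries, 12156 were at 1 CPM or more in all 5, which is 65.3%. Of those, 96.7% were annotated as protein-coding in GENCODE. The share of 65.3% is the one to set beside each count of list members below. There were 89 genes with a mean of 1000 CPM or more, and together they held 17.5% of all counts. The 100 most abundant genes of each library held 18.6% to 19.1% of its counts. Libraries were ranked alike over the 12156 genes, with a Spearman correlation between 0.936 for replicates 3 and 5 and 0.996 for replicates 2 and 3, which describes agreement across genes, and genes are not independent replicates. As a check for a library deposited more than once, no pair agreed within counting error (chi-square per degree of freedom of 15.7 in the closest pair). Replicate 5 stood apart, with 715 of the 12156 genes at least 2-fold above and 413 at least 2-fold below the median of the other 4 libraries, against at most 56 above and 372 below in any other library. The 23 genes of a hepatocyte list took 0.489%, 0.198%, 0.220%, 0.488% and 1.24% of the counts of replicates 1 to 5. Liver genes off that list are not counted in these values, which are thus not the whole share of liver gene transcripts. The labels do not give the source of these transcripts, and it was not tested. In bulk RNA, fewer cells of a type and less RNA per cell cannot be told apart.

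The transcriptome was led by genes of translation, iron storage, the cytoskeleton and the extracellular matrix. Per kilobase of exon, the scale on which different genes can be set side by side, the 10 highest genes were Eef1a1, Lgals1, Rplp1, Ftl1, Timp1, Actb, Spp1, Sparc, S100a6 and Fth1. Eef1a1, the elongation factor that brings aminoacyl-tRNA to the ribosome, had 7047, 6866, 6479, 7220.1 and 7568 CPM in replicates 1 to 5. Its level was 2822 ± 162 CPM per kilobase (SD, n = 5 libraries). Lgals1, a secreted galactoside-binding lectin, had 2202, 1982, 1927, 2062 and 2263 CPM. It stood below Eef1a1 per kilobase in all 5 libraries, at 2311 ± 158 CPM per kilobase. Other secreted proteins of the stroma were Timp1, an inhibitor of matrix metalloproteinases, with 1466, 1442, 1604, 1304 and 1861 CPM, Spp1 (osteopontin) with 2272, 2261, 2521, 2116 and 3038 CPM, and Sparc, a collagen-binding matrix protein, with 5143, 4972, 4946, 5639.9 and 5746 CPM. Timp1, Spp1 and Sparc were all highest in replicate 5. Ftl1 and Fth1, the light and heavy chains of ferritin, had 2584 ± 182 and 3619 ± 254 CPM, and S100a6, a calcium-binding protein, had 1561 ± 44.2 CPM. Reads of some of these genes could belong to copies elsewhere in the genome: of their 50-base words, 40.4% for Eef1a1, 60.0% for Rplp1 and 58.4% for Ftl1 also occur in transcripts of other genes, whereas for Lgals1, Timp1 and S100a6 none do. When length was taken from the longest annotated transcript, 17 of the 20 highest genes were the same.

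By CPM, which also counts length, the 10 highest genes were Fn1, Eef1a1, Sparc, Col1a2, Col3a1, Actb, Bgn, Vim, Fth1 and Col1a1, of which 4 were also among the 10 highest per kilobase. Fn1, the gene of fibronectin, had 7248, 8956, 9682, 10379 and 7577 CPM and ranked 1 by CPM and 16 per kilobase. Vim, the intermediate filament of mesenchymal cells, had 4206, 4053, 3957, 4078 and 3531 CPM. Alb, the albumin gene of the liver, ranked 12 per kilobase, with 1911, 707, 737, 1776 and 5005 CPM in replicates 1 to 5.

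**Figure D1:**
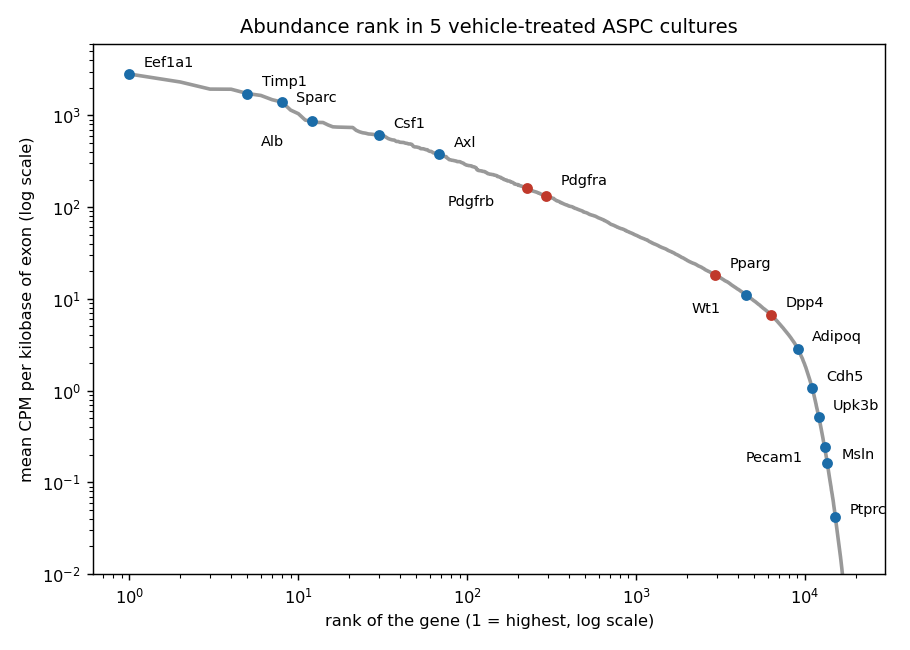
Mean CPM per kilobase of exon over the 5 DMSO libraries (y axis, log scale) against the rank of each gene (x axis, log scale), with selected genes labelled and the 4 ASPC markers in red. Pdgfrb and Pdgfra sit near the top of the curve at ranks 225 and 292, Pparg and Dpp4 lie further down at ranks 2941 and 6253, and Pecam1, Msln and Ptprc lie in the steep tail.

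The sequence upstream of the start site is shown for 5 genes. Vim and Prdx1 were picked because they hold the word TATAAA, and Col3a1, Pdgfra and Csf1 because they are abundant or were used in the sort. Sequences of Col1a2, Spp1 and Sparc were also drawn and are not shown. The sequences are from RefSeq (GRCm38.p6), read 5′ to 3′ along the gene's strand, and each covers the 60 bases that end just before the annotated start.
Vim, chr2:13574251-13574310, plus strand: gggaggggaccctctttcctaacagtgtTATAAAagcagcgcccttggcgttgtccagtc
Prdx1, chr4:116685539-116685598, plus strand: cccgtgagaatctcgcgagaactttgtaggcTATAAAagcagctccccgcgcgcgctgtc
Col3a1, chr1:45311478-45311537, plus strand: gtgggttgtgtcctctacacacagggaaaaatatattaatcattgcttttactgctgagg
Pdgfra, chr5:75152191-75152250, plus strand: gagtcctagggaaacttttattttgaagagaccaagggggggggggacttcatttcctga
Csf1, chr3:107760470-107760529, minus strand: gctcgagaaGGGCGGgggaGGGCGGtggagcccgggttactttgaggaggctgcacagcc

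Capitals mark TATAAA between positions -40 and -21 on the gene's strand, and GGGCGG or CCAAT on either strand. The word TATAAA began at -32 in Vim and -29 in Prdx1, an antioxidant enzyme with 2575, 2186, 2663, 1351 and 2569 CPM, the only genes with it among the 15 of the 20 highest per kilobase that have an entry. Of the 100 genes highest per kilobase, 79 have an entry and 5.06% of these hold TATAAA in that window, against 2.25% of 27025 genes with an entry and 1.3% of the 9721 that were at 1 CPM or more in all 5 libraries. GGGCGG was found within 250 bases upstream of 65.8% of the 79 genes, 35.4% of all genes with an entry and 64.7% of the 9721. CCAAT was found in 41.8%, 37.5% and 40.7% of the same sets. A match describes these letters and is no evidence of a factor bound there.

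The markers of ASPCs were all above 1 CPM in every library. Pdgfra (chromosome 5, 75152292 to 75198215, GRCm38) had 1192, 1378, 1338, 1413 and 1312 CPM in replicates 1 to 5, a mean of 1327 ± 84.7 (SD, n = 5). Pdgfrb (chromosome 18, 61045150 to 61085061), the receptor for PDGF-BB that mural cells also carry, had 744, 849.6, 859.8, 1054 and 901 CPM. Both varied little, and neither was highest in replicate 5. Per kilobase of the union of exons, Pdgfrb stood above Pdgfra in all 5 libraries (log2 ratio 0.28 ± 0.11), but with the longest annotated transcript it stood below Pdgfra in all 5 (mean log2 ratio -0.26), so the order of the pair is not settled by these counts. Pparg (chromosome 6, 115360951 to 115490399) was lower, with 48.7, 50.1, 57.9, 51.8 and 59.5 CPM, and was 2.87 ± 0.14 below Pdgfra in log2 CPM per kilobase. Dpp4 (chromosome 2, 62330073 to 62412231), a surface peptidase, had 42.2, 52.2, 24.8, 38.2 and 55.8 CPM and varied more, by a factor of 2.25 between replicates 3 and 5. It was below Pparg per kilobase in every library, also with the longest annotated transcript.

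The genes of the proteins that the sort selected against were near the bottom of the range. Pecam1, which encodes CD31, had 1.36, 1.55, 1.32, 1.55 and 1.70 CPM. Ptprc, which encodes CD45, had 0.887, 0.139, 0.29, 0.706 and 1.78 CPM, and its order across libraries (lowest in replicate 2, highest in replicate 5) was that of Alb. Whether liver-derived RNA added to the Ptprc counts was not tested.

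**Figure D2:**
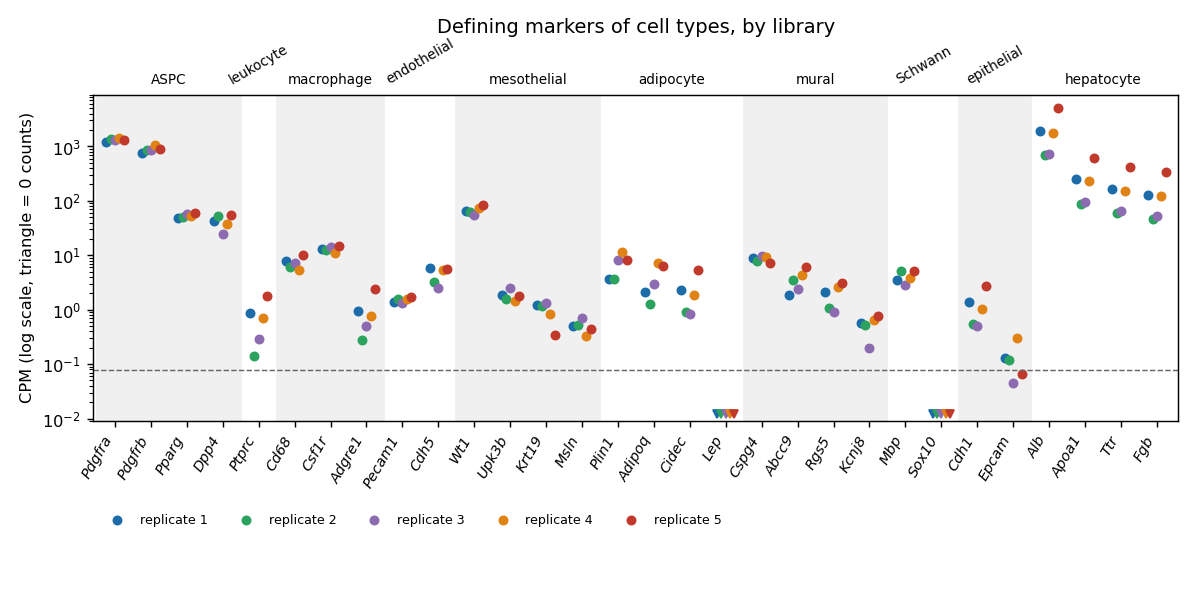
Level in CPM (y axis, log scale) of the defining markers of 10 cell types in each of the 5 DMSO libraries (colours), with triangles for 0 counts and a dashed line at the largest floor of 3 counts, 0.0783 CPM. Pdgfra and Pdgfrb lie between 744 and 1413 CPM, the markers of leukocytes, endothelium, mesothelium, adipocytes and glia lie mostly under 10 CPM apart from Wt1 and Csf1r, and the 4 hepatocyte markers are 6.91 to 7.23 times higher in replicate 5 than in replicate 2.

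Genes of several progenitor states were found together. Of the 50 progenitor genes, 45 were at 1 CPM or more in all 5 libraries, and their median level was 10.3 CPM per kilobase, against 7.21 for the genes at 1 CPM or more in all libraries. Among general surface markers, Itgb1, the beta 1 integrin chain, stood highest per kilobase, at 283 ± 17.6 CPM per kilobase (SD), while by CPM it was below Pdgfra, with 1156 ± 72.0 CPM, and Ly6a, which encodes SCA1, had 124, 147, 89.6, 184 and 237 CPM. Cd81 and Cd9, both tetraspanins, had 303 ± 80.7 and 128 ± 25.2 CPM, and Cd34 had 184 ± 18.8 CPM. Cd24a, a marker of a rarer adipocyte progenitor, stayed under 1 CPM in every library (0.358 to 0.902 CPM).

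Of the 12 genes of the DPP4+ interstitial state, 11 were at 1 CPM or more throughout, but most at low levels. Anxa3, an annexin, led them with 394, 488, 427, 349.8 and 278 CPM, and Wnt2, a WNT ligand, had 35.1 ± 2.89 CPM. Pi16, which marks the universal fibroblast of the interstitium, had 8.51, 8.58, 5.31, 6.59 and 6.55 CPM, and Cd55, a complement regulator, had 15.8 to 24.3 CPM. All 12 genes of the ICAM1+ committed preadipocyte state were at 1 CPM or more in every library, and their median level of 15.4 CPM per kilobase was higher than the 2.27 of the DPP4+ list, a description that carries no test. Icam1, the adhesion molecule of that state, had 34.9, 27.7, 33.8, 50.3 and 33.1 CPM. F3, the tissue factor gene that marks CD142+ stromal cells, had 303, 346, 277, 425 and 514 CPM and was highest in replicate 5, but other genes of that list were low: Gdf10 had 10.2, 13.1, 10.2, 34.7 and 38.3 CPM and Meox2 had 1.18 to 2.00 CPM. The LY6C+ fibro-inflammatory list was led by matrix genes, Loxl1 with 843 ± 59.0 CPM and Fbn1 with 2171 ± 336 CPM, and its inflammatory members were unequal. The chemokine gene Ccl2 had 165 ± 25.6 CPM, against 0.991 to 1.68 CPM for Il6 and 0 to 0.15 CPM for Cxcl2.

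Matrix genes were widely expressed. All 59 genes of the fibroblast matrix list were at 1 CPM or more in every library, beside 12156 of 18607 genes with a count. The list was chosen with earlier results of these data known. Together the 59 genes held 5.78%, 6.10%, 6.45%, 7.21% and 6.03% of the counts of replicates 1 to 5. Their median level was 64.6 CPM per kilobase. The fibrillar collagens were led by type I and type III, with 2912, 2657, 2859, 4525 and 3404 CPM for Col1a1, 4427, 4696, 4760.4, 6579.7 and 4732 CPM for Col1a2 and 4215, 4236, 4289.5, 6771 and 4456 CPM for Col3a1. Replicate 4 was the highest library for all 3 of them. Per kilobase, Col1a1 was above Col3a1 in 2 of 5 libraries, and in 0 with the longest annotated transcript as length. Col3a1 was above Col1a2 in 5 libraries, and in 0 with that length, so these 3 chains are not ranked here. Col5a2, a chain of the fibril-nucleating type V collagen, had 1430.3 ± 302 CPM, and Col11a1, a collagen of cartilage, had 3.82 to 8.58 CPM.

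Among network collagens, Col4a1 and Col4a2, the chains of basement membrane collagen, had 1796, 1852, 2388, 1692 and 1074 CPM and 1109.9, 1147, 1426, 902 and 530.2 CPM. Both were highest in replicate 3 and lowest in replicate 5. Col15a1, which links basement membranes to fibrils, had 507, 536, 689, 840.2 and 603 CPM and Col6a1 had 242 ± 48.4 CPM. The basement membrane glycoprotein Nid1 was among the steadiest abundant genes of the list, with 2098, 2272, 2248, 2198 and 2256 CPM, and Fbln2, a fibulin, had 2955, 3136, 3290.3, 3409 and 2565 CPM. The proteoglycans Bgn, Dcn and Lum, which bind collagen fibrils, shared an order, with replicates 4 and 5 above the other 3. Bgn had 3510.3, 3476, 3474, 4211 and 6287 CPM, Dcn had 789, 774, 665, 1183 and 1608 CPM and Lum had 173, 179.6, 145, 279 and 531 CPM. Lum thus spanned a factor of 3.67 between replicates 3 and 5. Hspg2, the basement membrane proteoglycan perlecan, was highest in replicate 4 and lowest in replicate 5 (985, 1135, 1236, 1246 and 767 CPM). Genes that fold and crosslink collagen were also abundant, and included Serpinh1, the collagen chaperone HSP47 (1810.4 ± 241 CPM), P4hb, a subunit of prolyl hydroxylase (1448 ± 125 CPM), and the crosslinking oxidases Loxl1 (843 ± 59.0 CPM) and Lox (1106 ± 131 CPM).

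Genes of the contractile apparatus were expressed at levels that differed between libraries. Of 12 genes, 11 were at 1 CPM or more in all libraries, and the summed level was 2851, 2715, 3075, 1837 and 1388 CPM in replicates 1 to 5. All 12 had their lowest value in replicate 5, as did 34.5% of the 12156 genes at 1 CPM or more in all libraries. The summed level was 2373 ± 724 CPM over the 5 libraries and 2620.0 ± 542 CPM without replicate 5. Tagln, an actin-binding protein of smooth muscle and myofibroblasts, had 428, 363, 532, 190.4 and 117 CPM, but 58.3% of its 50-base words also occur in transcripts of other genes. Acta2, smooth muscle actin, had 344, 295, 398, 207 and 204 CPM, and Tpm1 and Tpm2, which encode tropomyosins, had 839, 856, 843, 563 and 477 CPM and 287, 277, 312, 117 and 84.9 CPM. Myh9, the heavy chain of non-muscle myosin, had 2897, 3150.4, 3492, 1762 and 1166 CPM. Late smooth muscle genes were low, with 0.408 to 4.38 CPM for Cnn1 and 1.98 to 10.3 CPM for Myh11.

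Some secreted genes that act on the matrix, picked after their values were seen, were likewise low in replicates 4 and 5, and were highest in replicate 3. Thbs1 (thrombospondin) had 1989.8, 2076, 2858, 1112 and 768 CPM, and Ccn2, a matricellular growth factor, had 460.0, 500.0, 679, 204 and 122 CPM. Ccn2 thus spanned a factor of 5.57 among cultures that carry the same label. Ccn1, a relative of Ccn2, had 284, 302, 396, 167 and 109 CPM.

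**Figure D3:**
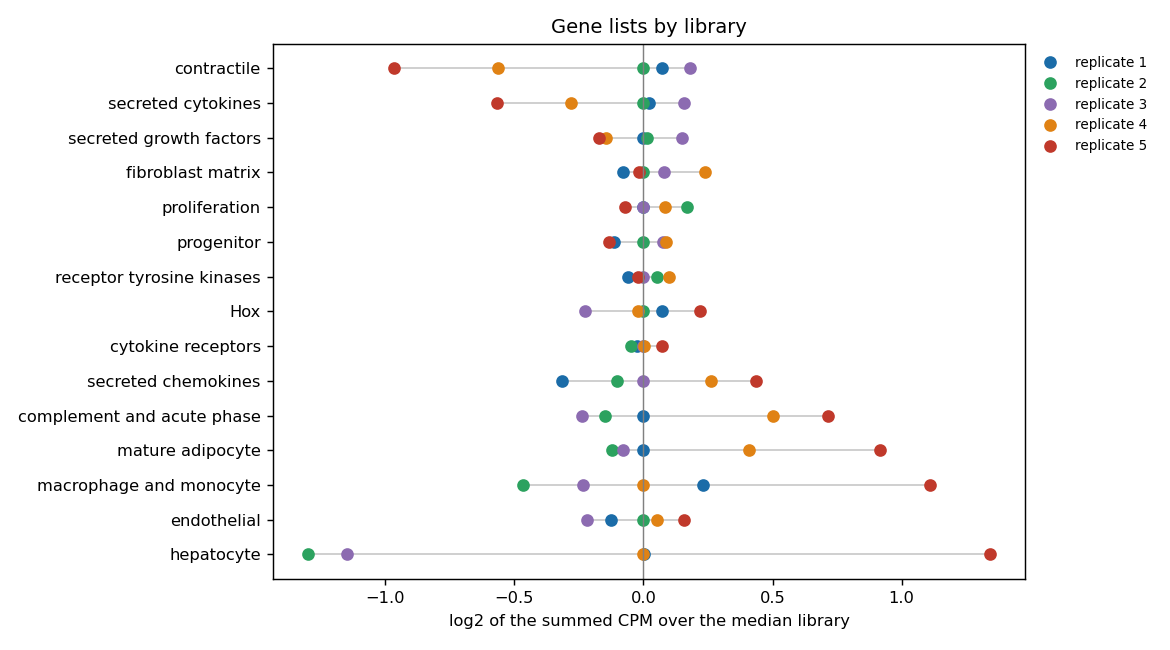
Summed CPM of 15 gene lists in each DMSO library, as log2 of the ratio to the median library (x axis), with 1 point for each of the 5 libraries (colours). Replicates 4 and 5 lie below the others for the contractile list and for the cytokine list, of which Csf1 alone is 87.1% to 93.8%, and above them for complement, chemokine and adipocyte genes, hepatocyte genes spread most widely, and the lists for progenitors, receptor tyrosine kinases, cytokine receptors and proliferation stay close to the median library.

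Genes of the cell cycle were expressed in these confluent cultures. All 22 proliferation genes were at 1 CPM or more in every library, with a median of 46.9 CPM per kilobase, and summed levels of 4329.5, 4867, 4327, 4584 and 4125 CPM. Pcna, the sliding clamp of DNA polymerase, had 231, 252, 235, 257 and 251 CPM and Rrm2, a subunit of ribonucleotide reductase, had 232, 255, 246, 218 and 216 CPM. Of the mitotic genes Ccnb2 and Cdc20 stood highest per kilobase, with 123 ± 26.6 and 144 ± 12.8 CPM. Mki67, whose protein marks cycling cells, had 469, 615, 519.7, 510.0 and 243 CPM, with its lowest value in replicate 5, although other mitotic genes such as Ccna2 (211, 242, 210.1, 229.6 and 332 CPM) were highest there. The cyclin-dependent kinase inhibitors were also all above 1 CPM. Trp53, the tumour suppressor that induces one of them, had 132, 121, 115, 131 and 161 CPM, and Cdkn2c, Cdkn2b and Cdkn1a had 65.5 ± 14.5, 30.9 ± 2.37 and 66.5 ± 8.15 CPM, while Cdkn2a, the senescence-linked locus, had 6.81, 7.41, 7.17, 7.03 and 5.07 CPM.

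Regulators of adipocyte differentiation were expressed on both sides. All 14 activators were at 1 CPM or more in every library, led per kilobase by Cebpb, an early factor of the programme (146, 101, 106, 112 and 84.2 CPM), Cebpa, a late one (99.4, 96.4, 89.6, 98.5 and 101 CPM), Srebf1, a regulator of lipid synthesis (153, 139, 126, 187 and 216 CPM), and Rxra, the partner of PPARG (118 ± 7.33 CPM). Cebpb was highest in replicate 1 and lowest in replicate 5, whereas Cebpa spanned only a factor of 1.13. Of 13 inhibitors 11 were at 1 CPM or more throughout, with Wwtr1 and Yap1, the coactivators of the Hippo pathway, at 159 ± 12.8 and 166 ± 1.81 CPM, and Ddit3, a stress factor that blocks C/EBP proteins, at 24.3 ± 5.39 CPM. Dlk1 (PREF1), lost as preadipocytes differentiate, had 56.8, 45.1, 46.0, 74.3 and 62.3 CPM. Wnt10b, an inhibitory WNT, was under 1 CPM in each library.

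Genes of the finished adipocyte were split between lipid enzymes at high levels and defining markers that were low or at 0. Lep (leptin) and Ucp1, of thermogenic fat, had 0 counts in all 5 libraries, which allows up to 0.0783 CPM. Adipoq, the adiponectin gene, had 2.11, 1.27, 2.97, 7.20 and 6.25 CPM, and the lipid droplet genes Plin1 and Cidec had 3.60, 3.60, 8.22, 11.5 and 8.36 CPM and 2.35, 0.916, 0.848, 1.88 and 5.39 CPM. Adipoq and Plin1 were highest in replicate 4. In contrast, Scd1, the enzyme that makes monounsaturated fatty acids, had 1214, 925, 914, 1617 and 2985 CPM, Lpl, the lipase of lipoproteins, had 877, 996, 1065, 1199.6 and 1445 CPM and Fasn, fatty acid synthase, had 622, 614, 598, 802 and 739 CPM. Fabp4, an early adipocyte lipid carrier, had 57.7, 55.0, 73.2, 66.0 and 34.3 CPM and was lowest in replicate 5. The list holds genes that the liver also expresses, and its members differed in how far they followed Alb, whose level in replicate 5 was 7.08 times that in replicate 2. The same ratio was 7.48 for Cidea, 6.68 for Gpd1, 5.89 for Cidec, 4.90 for Adipoq and 3.94 for Dgat2. It was 3.39 for Cd36, 3.23 for Scd1, 3.05 for Acsl1 and 2.32 for Plin1. Lower ratios were 1.63 for Pnpla2, 1.45 for Lpl, 1.27 for Plin4 and 1.20 for Fasn. Cidea, Cidec and Adipoq had only 0.299, 0.916 and 1.27 CPM in replicate 2, so their ratios rest on low levels. Whether liver RNA added to the levels of these genes was not tested. The list held 24 genes, of which 15 were at 1 CPM or more in every library, beside 12156 of 18607 genes with a count. Its summed level went from 2736 CPM in replicate 2 to 5616 CPM in replicate 5. The mean was 3619 ± 1218 CPM and, without replicate 5, 3120.0 ± 561 CPM.

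Liver genes were found in every library. Of 23 hepatocyte genes, 22 were at 1 CPM or more in all 5 libraries, and all 23 were highest in replicate 5, as were 40.2% of the 12156 genes at 1 CPM or more in all libraries. Apoa1 and Ttr, which encode secreted carrier proteins, had 253, 87.8, 94.9, 229.9 and 608 CPM and 166, 60.5, 64.0, 153 and 418 CPM. The ratio of replicate 5 to replicate 2 lay between 6.22 and 7.38 for 20 of the 22 genes, with 3.39 for Fah, an enzyme of tyrosine breakdown, and 3.54 for Trf, the transferrin gene, which had 659.8, 427, 552, 923 and 1512 CPM. Ass1, an enzyme of the urea cycle, was the exception, with 0 to 6 counts per library, and 38.6% of its 50-base words also occur in transcripts of other genes. Markers of other liver cells had ratios of the same order: 6.10 for Clec4f and 7.82 for Cd5l, of liver macrophages, and 7.23 for Stab2 and 6.22 for Clec4g, of the sinusoidal endothelium. In replicate 2 these markers had only 1.33, 1.61, 0.797 and 0.598 CPM, in the same order, so their ratios rest on low levels. Pdgfra and Pecam1 had ratios of 0.951 and 1.09.

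Among other cell types, the mesothelial list was partly present. Of 17 genes 8 were at 1 CPM or more in all libraries, with a median of 0.518 CPM per kilobase. Cldn15, a claudin, had 28.7, 27.0, 33.5, 37.1 and 38.02 CPM, and Wt1, a transcription factor of the mesothelium and of visceral stroma, had 64.3, 62.5, 56.0, 75.3 and 85.4 CPM. The keratins Krt8 and Krt18 had 11.9, 4.64, 4.35, 12.8 and 27.9 CPM and 8.09, 3.09, 3.51, 10.2 and 24.2 CPM. Their ratios between replicates 5 and 2 were 6.00 and 7.84, beside 7.08 for Alb. Whether liver RNA added to the keratin counts was not tested. Krt19 had 1.23, 1.16, 1.34, 0.823 and 0.344 CPM and was lowest in replicate 5. The defining markers Msln and Upk3b were low, with 0.496, 0.518, 0.714, 0.329 and 0.451 CPM and 1.83, 1.57, 2.50, 1.43 and 1.80 CPM. Slpi, a protease inhibitor of epithelia and mesothelium, had 9.21, 7.17, 10.5, 6.23 and 9.07 CPM.

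Of 27 immune genes only 6 were at 1 CPM or more in all libraries. They were Il1rl1, the IL-33 receptor, which stromal cells can also express, at 517, 385, 448, 235 and 344 CPM, and, at far lower levels, Cd68, Csf1r, Lyz2, Cd5l and Cd14. Cd68, a lysosomal protein, and Csf1r, the receptor for CSF1, had 7.85, 6.01, 7.26, 5.46 and 9.97 CPM and 13.3, 12.5, 14.4, 11.1 and 15.0 CPM, whereas Adgre1, which encodes F4/80, had 0.965, 0.279, 0.491, 0.776 and 2.41 CPM. Of the 15 macrophage and monocyte genes 14 were highest in replicate 5, as were 6921 of the 18607 genes with a count. Only 5 of the 15 were at 1 CPM or more in all libraries. The ratio between replicates 5 and 2 was 5.73 for Mrc1, 7.92 for C1qa, 8.63 for Adgre1 and 11.7 for C1qb, beside 7.08 for Alb. It was 1.20 for Csf1r and 1.66 for Cd68. Mrc1, C1qa, Adgre1 and C1qb had only 1.075, 0.637, 0.279 and 0.518 CPM in replicate 2, so their ratios rest on low levels. Whether liver RNA added to the macrophage genes was not tested. The summed level of the 15 genes was 48.3 ± 23.4 CPM, and 38.3 ± 7.92 CPM without replicate 5. Lymphocyte and granulocyte genes other than Il1rl1 were all under 1 CPM.

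The endothelial list gave 7 of 16 genes at 1 CPM or more in every library, and a median of 0.28 CPM per kilobase. Tek, the angiopoietin receptor, was far above the rest with 57.5, 76.0, 51.6, 68.2 and 71.3 CPM, and Cdh5, the cadherin of endothelial junctions, had 5.82, 3.17, 2.55, 5.41 and 5.52 CPM. Of 9 mural genes, Cspg4 (NG2) had 8.97, 7.89, 9.62, 9.15 and 7.35 CPM, and Rgs5 and Kcnj8 had 0.915 to 3.09 CPM and 0.201 to 0.773 CPM, while Higd1b had 0 counts. Sox10, the defining factor of Schwann cells, had 0 counts in all libraries, and Mbp, with 2.79 to 5.20 CPM, was the only one of 6 Schwann genes at 1 CPM or more throughout. No gene of the epithelial list was at 1 CPM or more throughout. Epcam had 0.0447 to 0.306 CPM, Krt5, a basal keratin, had 0 to 3 counts per library, Esrp1 was at or under 5 counts in each library, and Cdh1, which hepatocytes also express, had 1.38, 0.538, 0.491, 1.03 and 2.69 CPM.

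Many receptors of growth factors were expressed. Of 49 receptor tyrosine kinases, 41 were at 1 CPM or more in all libraries, beside 12156 of 18607 genes with a count. Axl, the receptor for GAS6, was the highest of them per kilobase, with 1974, 2079, 1897, 1843 and 1802 CPM, and stood above both PDGF receptors in all 5 libraries with either measure of length. Ddr2, a receptor for fibrillar collagen, had 738, 846, 821, 799 and 824 CPM. Fgfr1, a receptor for the FGF supplied in the medium, had 566, 508, 539, 634 and 557 CPM, Ryk, a WNT co-receptor, had 182 ± 19.1 CPM, and Egfr and Igf1r had 306 ± 45.8 and 75.2 ± 12.2 CPM. Insr, the insulin receptor, was lower at 30.7, 31.2, 32.7, 35.2 and 43.2 CPM. Flt3 and Epha5 were close to 0, with 0 to 6 and 0 to 1 counts per library, and Kit, whose ligand gene Kitl had 238 ± 35.5 CPM, had 8.77, 8.94, 6.79, 20.7 and 28.8 CPM, higher in replicates 4 and 5.

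Of 17 receptors of the TGF-beta family 14 were at 1 CPM or more in every library. The co-receptors Eng and Tgfbr3 had 175 ± 18.5 and 275 ± 62.6 CPM, the type I receptors Bmpr1a and Tgfbr1 had 153 ± 34.9 and 134 ± 31.8 CPM, and Tgfbr2, the type II receptor for TGF-beta, had 169.6, 186, 166, 220.3 and 231 CPM. The WNT receptor Fzd1 had 217, 216, 204, 230.1 and 271 CPM and was above Fzd2 (90.2 ± 15.6 CPM) per kilobase in all 5 libraries. Smo, of the hedgehog pathway, had 149, 150.2, 143, 160.1 and 153 CPM, and Lrp6, the co-receptor of WNT signalling, had 162 ± 15.6 CPM.

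Nuclear receptors were present at moderate levels, with 27 of 32 at 1 CPM or more throughout. Rxra, Nr3c1, the glucocorticoid receptor, Nr2f6 and Nr1h2, an oxysterol receptor, led per kilobase, with 118 ± 7.33, 161 ± 14.6, 61.1 ± 10.3 and 62.6 ± 4.40 CPM. Nr3c1 and Pparg could not be ordered, since Nr3c1 was above Pparg per kilobase in 5 libraries with the union of exons and in 3 with the longest transcript. Among sex steroid receptors, Esr1 had 35.2, 48.5, 34.4, 38.7 and 59.6 CPM, whereas Esr2 and Pgr stayed under 1 CPM. Ppara, a fatty acid sensor of the liver, had 11.7, 6.17, 5.76, 12.7 and 29.1 CPM, with a ratio of 4.71 between replicates 5 and 2.

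Of 37 cytokine and metabolic hormone receptors 29 were at 1 CPM or more in all libraries, and their median level of 13.8 CPM per kilobase was above that of the nuclear receptors, at 5.86. Tnfrsf1a, the main TNF receptor, had 241, 226, 221, 283 and 292 CPM and Il1rl1 was the highest of the IL-1 and IL-17 receptors per kilobase. Il6st, the shared chain of the IL-6 family, had 466, 589, 541, 607 and 474 CPM, but Il6ra, the chain that binds IL-6 itself, had 22.7 to 25.7 CPM. Tnfrsf12a, the receptor for TWEAK, had 131, 116, 156, 70.8 and 34.4 CPM, and was lowest in replicates 4 and 5 as the contractile genes were. Ghr, the growth hormone receptor, had 189, 192, 191, 174 and 208 CPM. Lepr, the leptin receptor, was low, with 0.104, 0.159, 0.0447, 0.47 and 1.07 CPM.

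G protein-coupled receptors were sparser: 25 of 47 were at 1 CPM or more throughout, with a median of 0.754 CPM per kilobase. F2r, the thrombin receptor, had 326, 349, 380.1, 310.0 and 391 CPM and S1pr3, a receptor for sphingosine 1-phosphate, had 281, 323, 326, 318 and 324 CPM. They spanned a factor of 1.26 and 1.16 across libraries, and F2r was above S1pr3 per kilobase in all 5. Ptgir, for prostacyclin, and Lpar1, for lysophosphatidic acid, had 108 ± 22.2 and 129 ± 14.2 CPM. Of the beta-adrenergic receptors, which drive lipolysis in adipocytes, Adrb1 had 0.172 to 1.12 CPM and Adrb3 had 0.179 to 1.63 CPM. The chemokine receptor list had no member above 10 CPM, and Ackr3, a scavenger of CXCL12, led it with 4.51 to 9.75 CPM.

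Among cytokines, chemokines and growth factors, Csf1, the growth factor of macrophages, stood highest per kilobase. It had 3501, 3526, 3924, 2830.2 and 2207 CPM in replicates 1 to 5 (606 ± 129 CPM per kilobase, SD), rank 11 of all genes by CPM and 30 per kilobase. Its value was highest in replicate 3 and lowest in replicate 5. Of the 27 cytokines, 8 were at 1 CPM or more in all libraries. Csf1 made up 87.1% to 93.8% of their summed level, and the other members summed to 313.3, 231.8, 268.7, 261.5 and 326.1 CPM, highest in replicate 5. Mif, a macrophage inhibitory factor, had 162, 114, 121, 126 and 189.6 CPM, although 50.9% of its 50-base words also occur elsewhere, and Il33, the alarmin that binds the receptor encoded by Il1rl1, had 95.4, 65.7, 71.5, 92.1 and 99.1 CPM. Clcf1 and Lif, of the IL-6 family, had 8.89 to 31.5 and 7.07 to 15.8 CPM, and Il34, the other ligand of CSF1R, had 7.31 to 9.10 CPM. The cytokines Il1b, Il1a, Tnf and Il10 stayed under 1 CPM, Il6 had 0.991, 1.37, 1.54, 1.43 and 1.68 CPM, and Il4, Il13, Il17a, Osm, Csf2 and Ifnb1 had 0 counts.

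Of 22 chemokines 12 were at 1 CPM or more in all libraries. Ccl2, which recruits monocytes, was above Ccl7 and Cxcl12 per kilobase in all 5 libraries (above Cxcl12 in 4 with the longest transcript), with 157, 169.9, 206, 152 and 139 CPM, and Ccl7 had 39.7, 51.0, 56.7, 52.7 and 59.7 CPM. Cxcl12, a stromal chemokine for CXCR4+ cells, had 374, 455, 444, 596 and 721 CPM, with replicates 4 and 5 above the others, and was not separated from Ccl7 per kilobase (Ccl7 higher in 3 of 5 libraries, and in 0 of 5 with the longest transcript). Ccl11 (eotaxin) had 33.9, 36.9, 34.4, 69.1 and 83.3 CPM and Cxcl5, for neutrophils, had 8.09, 8.60, 4.51, 22.5 and 35.9 CPM. The neutrophil chemokine Cxcl2 was at or near the floor, and Ccl12 had 0 counts.

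Among 77 growth factors, 56 were at 1 CPM or more in every library, beside 12156 of 18607 genes with a count. Grn (progranulin), Ccn2, Ccn1 and Angptl2, an angiopoietin-like protein, led per kilobase, with 502 ± 116, 393 ± 228, 252 ± 114 and 543 ± 51.8 CPM. Inhbb and Inhba, the activin chains, had 279, 329.6, 269.6, 235 and 172 CPM and 206, 205, 264, 94.1 and 96.0 CPM. Vegfd had 122, 124, 118, 163 and 198 CPM and Vegfa 75.8 ± 6.76 CPM. Igf1 had 196, 222, 197, 362 and 462 CPM, with replicates 4 and 5 above the rest, while Igf2 was under 3 CPM. The ligands of the PDGF receptors were low, with 13.2, 9.58, 11.6, 8.21 and 7.48 CPM for Pdgfa and 0.134 to 0.753 CPM for Pdgfb, and Pdgfd had 21.2 ± 3.70 CPM. Fgf7 and Fgf2 had 108 ± 18.8 and 45.3 ± 13.0 CPM, and Mstn and Fgf5 had 0 counts.

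Of binding proteins that restrain growth factors, 23 of 28 were at 1 CPM or more in all libraries, beside 12156 of 18607 genes with a count. Of the proteins that bind insulin-like growth factors, Igfbp7 had 345, 293, 336, 364 and 299 CPM, Igfbp6 had 228, 202, 202, 152 and 79.5 CPM and Igfbp4 had 446, 333, 426, 609.6 and 614 CPM, and in replicate 5 Igfbp6 was lowest and Igfbp4 highest. Fstl1, a follistatin-like protein, had 1127, 1166, 1207, 1320.1 and 1288 CPM, and its order against Igfbp7 per kilobase turned with the measure of length. Sfrp1, a WNT antagonist, had 365, 378, 361, 561 and 561 CPM, while Dkk1 and Sfrp5 had 0 counts. Among proteases, Mmp2, a gelatinase, had 862, 786, 738, 1447 and 1523 CPM, Mmp14, its activator, had 1348, 1248, 1254, 1428 and 1345 CPM, and the lysosomal Ctsd and Ctsb had 1053 ± 59.6 and 1672 ± 291 CPM. The inhibitors Timp1, Serpinf1 (PEDF) and Timp2 stood beside them, with 686, 638, 672, 815 and 1008 CPM for Serpinf1 and 824, 824, 863, 877 and 802 CPM for Timp2. Mmp9, Mmp12 and Mmp13 were under 1 CPM.

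Complement genes were part of the baseline, and 14 of 16 complement and acute phase genes were at 1 CPM or more in all libraries. C3, the central component, had 526, 413, 474, 735 and 799 CPM, Serping1, the C1 inhibitor, had 159.8, 145, 135, 274 and 352 CPM and C1s1 had 177, 187, 162, 286 and 274 CPM. In each of these 3 genes replicates 4 and 5 were above the other 3 libraries. The share of counts in the hepatocyte list was 0.489% in replicate 1, 0.488% in replicate 4 and 1.24% in replicate 5. It was lower in replicates 2 and 3. All 3 genes were higher in replicate 4 than in replicate 1, each of which is a single library. Whether liver RNA added to the levels of these genes was not tested. The summed level of the complement and acute phase list was 1590.3, 1434, 1350.2, 2250.3 and 2609 CPM, a mean of 1656 ± 408 CPM without replicate 5. Hp (haptoglobin), in contrast, had 116, 42.5, 47.8, 115 and 283 CPM, with a ratio of 6.66 between replicates 5 and 2. Ptx3, a pentraxin made by stromal cells, had 117, 194, 133, 104 and 64.9 CPM, lowest in replicate 5.

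Transcription factors that mark the place of a mesenchymal cell in the body were in part expressed. Of 28 positional factors 15 were at 1 CPM or more throughout. Prrx1, of limb and body wall mesenchyme, had 357, 368, 328, 342 and 540.0 CPM, and Twist1, Twist2 and Osr1 had 54.0 ± 14.1, 83.3 ± 6.21 and 42.5 ± 1.94 CPM. The visceral factors Tcf21, Wt1, Gata6 and Tbx18 had 48.0 ± 7.31, 68.7 ± 11.7, 68.9 ± 9.56 and 29.9 ± 5.22 CPM. Neither Prrx1 and Twist1 nor Tcf21 and Osr1 could be ordered per kilobase of the union of exons. In each pair the gene named first was higher in 2 of 5 libraries, and in all 5 with the longest annotated transcript as length. Unlike Prrx1, some other factors known from subcutaneous or limb mesenchyme were low. Tbx15 had 0.15 to 0.282 CPM, Shox2 0 to 0.0706 CPM, Pitx1 0 to 0.104 CPM and En1 2.23 to 2.79 CPM.

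Hox genes, which record position along the body axis, were highest in the middle of the clusters. Of 39 genes 24 were at 1 CPM or more in all libraries, beside 12156 of 18607 genes with a count. Hoxc8 (82.4, 81.7, 64.6, 75.7 and 98.6 CPM), Hoxc6 (54.9, 54.3, 45.4, 57.5 and 72.6 CPM), Hoxa5 (39.5, 40.9, 35.2, 41.4 and 52.2 CPM) and Hoxa6 (12.7, 16.7, 13.2, 16.4 and 17.5 CPM) stood highest per kilobase, though the order of Hoxc8 over Hoxc6 held in 3 of 5 libraries with the longest transcript. Beyond paralog group 10, no Hox gene reached 2 CPM in any library, and Hoxc12, Hoxd12 and Hoxd1 had 0 counts. Of the HoxA cluster 9 of 11 genes were at 1 CPM or more in all libraries, of HoxB 7 of 10, of HoxC 6 of 9 and of HoxD 2 of 9, Hoxd8 (15.9 to 19.9 CPM) and Hoxd9 (1.75 to 2.47 CPM). Levels at these loci carry the usual limit that neighbouring Hox transcripts overlap, and the strand used in counting is not given in the sources used here. The 4 Y-linked genes examined were at 1 CPM or more in every library, Ddx3y at 68.1, 72.3, 73.4, 72.8 and 82.0 CPM, and Xist had at most 4 counts in any library.

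**Figure D4:**
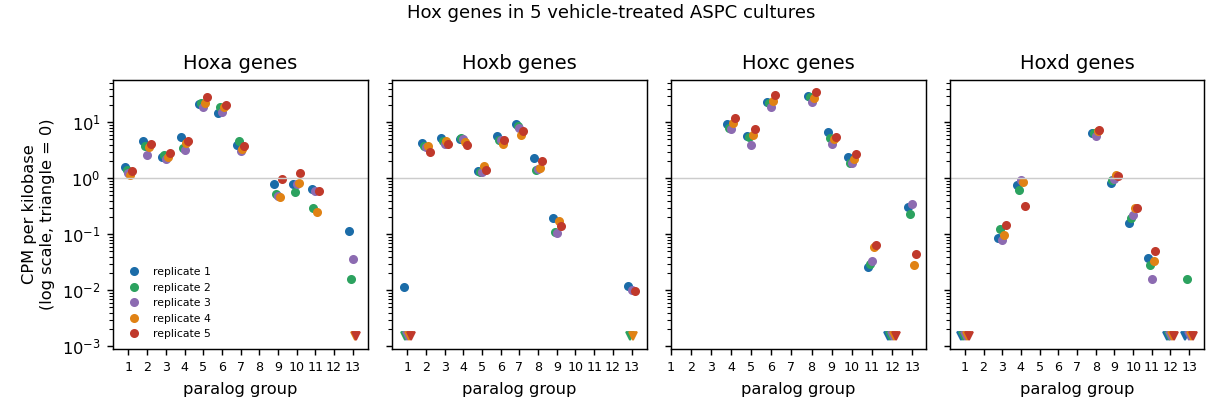
CPM per kilobase of exon (y axis, log scale) of the Hox genes of each cluster by paralog group (x axis), with 1 point for each of the 5 DMSO libraries (colours) and triangles at the bottom for 0 counts. The highest points are those of Hoxc8, Hoxc6, Hoxa5 and Hoxa6, and groups 11 to 13 lie below the line at 1 CPM per kilobase in all 4 clusters.

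All 12 genes of the AHR pathway list were at 1 CPM or more in all libraries of these DMSO cultures. Ahr, the receptor, had 15.1, 13.5, 14.6, 11.5 and 17.2 CPM and its partner Arnt 76.7, 84.1, 78.5, 100.2 and 93.9 CPM, with Arnt above Ahr per kilobase in all 5 libraries. The chaperone gene Hsp90ab1 had 2792, 2559.9, 2602, 2011 and 1821 CPM, and its cochaperone Ptges3 had 164 ± 11.1 CPM. Of its target genes, Cyp1b1 and Nqo1 were the most abundant per kilobase, at 169 and 162 CPM per kilobase. Cyp1b1, a monooxygenase, had 823, 980.4, 867, 1040.3 and 1230.5 CPM, and Nqo1, a quinone reductase, had 292, 274, 303, 158 and 228 CPM, lowest in replicate 4. Cyp1a1, the classic target, was below Cyp1b1 in all 5 libraries. Cyp1a1 had 35.1, 26.6, 41.9, 11.8 and 18.0 CPM in replicates 1 to 5, a span of 3.54-fold, with replicate 4 lowest and replicate 3 highest. Cyp1a2, a liver enzyme, had 12.4, 5.88, 5.98, 13.2 and 34.7 CPM, with a ratio of 5.90 between replicates 5 and 2, against 7.08 for Alb.

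The spread between libraries beyond counting error was estimated with edgeR as a biological coefficient of variation over the 14372 genes with a mean of 10 or more counts. It was 26.0% in common over these genes, and 16.6% when replicate 5 was left out. Among the 9603 genes with a mean of 10 CPM or more, the median of the gene-wise values, which edgeR draws towards those of genes of like abundance, was 16.8%, and 206 genes were above 50%. The 10 largest values were those of Nes, Crp, Nefm, Hamp, Proc, Cyp2c70, Mtarc1, Abcb11, Cyp3a25 and Ttc36. Nes and Nefm encode intermediate filaments, nestin and a neurofilament chain, and had 238, 183, 286, 49.1 and 23.5 CPM and 45.9, 32.6, 34.9, 6.44 and 5.48 CPM, low in replicates 4 and 5. The other 8 were highest in replicate 5, as with Hamp, the hepatic iron hormone (9.24, 2.85, 3.73, 8.42 and 26.4 CPM), and Crp, an acute phase protein of the liver (10.9, 3.13, 3.95, 8.68 and 30.6 CPM). Of the 100 genes with the largest values 96 were highest in replicate 5, beside 40.2% of the 12156 genes expressed throughout. On the hepatocyte list were 13 of the 100. That list holds only 23 genes and lacks Crp and Hamp, so 13 is not a count of all liver genes among the 100. The minimum favours genes that are highest in replicate 5, since 29 of the 100 reached a mean of 10 CPM only with replicate 5 included.

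Without replicate 5, 10 of the 20 genes with the largest values fell under the minimum mean of 10 CPM and could not be ranked, and 5 of the others stayed among the largest 20. Of the 15 new entries, 6 were, like Alb, highest in replicate 5 and lowest in replicate 2, among them Gpd1 and Tmprss6, which the liver expresses. The others included Rn45s, the ribosomal RNA precursor (2810, 782, 789, 2002 and 2114 CPM), and Ptgs2, the inducible cyclooxygenase (23.5, 14.5, 33.7, 7.88 and 8.49 CPM). Rn45s was highest in replicate 1 and, like Alb, lower in replicates 2 and 3 than in the other libraries. Also among them were Irf7 (41.6, 52.4, 16.5, 106 and 44.3 CPM) and Ifi27l2a (14.8, 17.1, 7.70, 35.1 and 20.9 CPM), both interferon-inducible and both highest in replicate 4 and lowest in replicate 3. The smallest values were those of Chmp5, Asna1, Ubap1, Gna12 and Rab12, genes of membrane trafficking and signalling. Chmp5 had 77.5, 77.6, 77.0, 75.7 and 77.5 CPM and Rab12 91.9, 88.0, 86.7, 88.5 and 89.7 CPM, and their coefficients of 12.1% are close to the lowest of any gene after the shrinkage that edgeR applies.

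**Figure D5:**
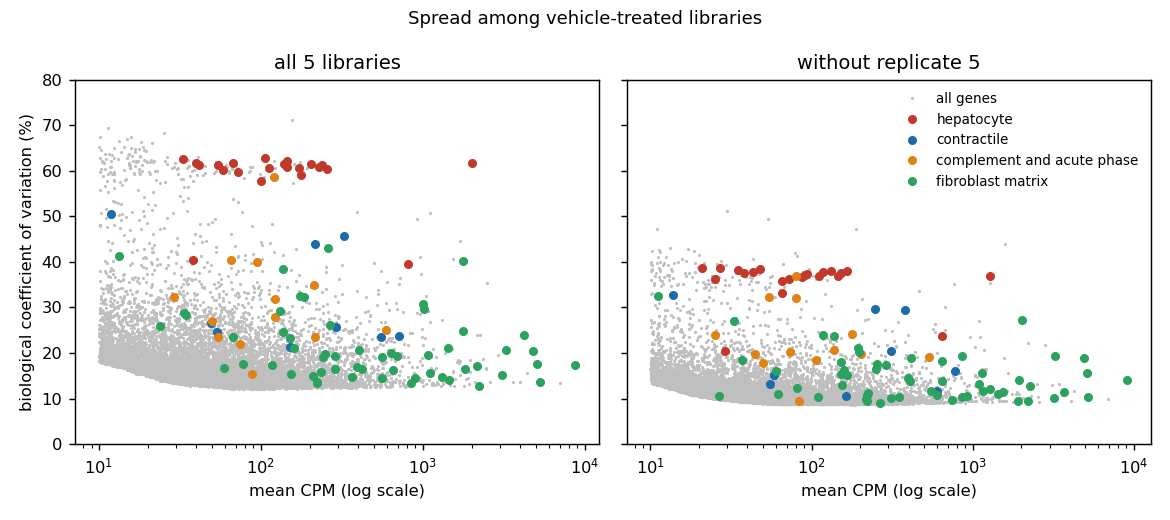
Biological coefficient of variation in percent (y axis) against mean CPM (x axis, log scale) for genes with a mean of 10 CPM or more, over all 5 DMSO libraries (left) and without replicate 5 (right), with genes of 4 lists in colour. Hepatocyte genes form a band above most others, with Alb at 61.6% on the left and 36.9% on the right, whereas Fn1, a matrix gene, lies at 17.3% and 14.1%.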

How the data were processed

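RNA of 5 DMSO-treated ASPC cultures was sequenced, and the deposited table holds raw counts per gene, which the authors made from reads aligned with STAR (2.7.7) to mm10, per the submitters' processing notes. The counting program, annotation and use of strand are not given in the sources used here, so overlapping and antisense genes cannot be told apart. The table holds 25229 rows, and 8 rows with a duplicated symbol (at most 4 counts each) were left out. The columns of the FICZ-treated cultures were not analysed here.

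Counts were divided by the library total and given per 1000000 counts (CPM), each with its SD over 5 libraries. For levels between genes, CPM was divided by the kilobases of the union of exons in GENCODE M21 (GRCm38), which matched 24358 genes, 96.6% of those kept. Genes without a length held 0.85% of counts. A floor of 3 counts was used, and a gene was taken as expressed throughout at 1 CPM or more in all 5 libraries. The spread was estimated with edgeR (4.0.16, R 4.3.3) dispersions from a design with an intercept only, over genes with a mean of 10 or more counts, after the code was tested on simulated data. No comparison between groups was made and no p-value was computed. The alternatives were TMM and DESeq2 (1.42.0) size factors, other count minimums, the longest annotated transcript as length, leaving out the hepatocyte list, and leaving out each replicate. The list sums and the most variable genes without replicate 5, and the naming of the Pdgfrb to Pdgfra ratio as a result of its own, were added after seeing the data.

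The members and gene lists were chosen with earlier results of these data known. Named genes were the 4 ASPC markers and the genes of the sort, the 10 genes highest per kilobase and by CPM, the 3 to 6 members of each list highest per kilobase, defining markers of other cell types at or under the floor, and the 10 largest and 5 smallest coefficients of variation. Every other gene named was chosen after its values were seen. The share of 50-base words was counted in GENCODE transcripts.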

Additional observations from a re-analysis of the deposited data

Results flagged for a closer look

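Of 183 values examined over the 5 libraries (single genes with their levels given above, list sums and library measures), 14 had a library whose distance to its nearest neighbour was large beside the whole range (Dixon's criterion). Chance does so for about 1 in 20 independent groups, which these are not: many of the genes were chosen after their values were seen, and the share of counts in the hepatocyte list and its summed level are 1 quantity, with Alb in both. No excess over chance is read from the count. Replicate 5 was the library that stood apart in 10 of the 14, as the highest in 9. The causes were not tested.

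The liver genes stood apart in replicate 5. Alb had 5005 CPM there against 1911 CPM in the next library, and the hepatocyte list summed to 12400.0 CPM against 4892 CPM, or 1.24% of counts against 0.489%. Crp had 30.6 CPM against 10.9, Hamp 26.4 CPM against 9.24 and Cyp1a2 34.7 CPM against 13.2. The ratio of replicate 5 to replicate 2 was 7.08 for Alb and 5.90 for Cyp1a2.

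Other genes also stood apart in replicate 5. The proteoglycan gene Bgn had 6287 CPM against 4211, the transcription factor gene Prrx1 had 540.0 CPM against 368, and the cyclin gene Ccna2 had 332 CPM against 242. Cdkn2a was lowest there, with 5.07 CPM against 6.81 in the next library.

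In replicate 4 the collagen genes Col3a1 and Col1a2 had 6771 and 6580.0 CPM, against 4456 and 4760.4 CPM in the next library. In replicate 1 the receptor gene S1pr3 was lowest, with 281 CPM against 318. In replicate 3 the list of cell cycle inhibitors had its lowest sum, 353 CPM against 376.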

How the results depend on the processing

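Of 122 alternative values over 52 results, 69 were means with 1 library left out, which cannot move by more than the SD over the 5 libraries and so say nothing of stability. Of the other 53, 42 kept their direction and stayed within a limit. The limit was the spread between libraries or, for counts of genes and the common coefficient, 1.5 times. The 42 include all values under TMM factors, DESeq2 size factors, other count minimums and a library total without the hepatocyte list. That list held at most 1.24% of the counts of any library. Taking it out of the total could thus hardly move a level, and says nothing of stability. Leaving out each replicate in turn gave a common biological coefficient of variation between 16.59% (without replicate 5) and 28.82%, and a lowest Spearman correlation between 0.9359 and 0.9809 (without replicate 5). The share of counts in the hepatocyte list ranged from 0.349% to 0.609% in the same way, Pdgfra from 1305 to 1360 CPM and Dpp4 from 39.4 to 47.1 CPM. With the longest annotated transcript as length, the mean log2 ratio per kilobase changed sign for Pdgfrb over Pdgfra (-0.2629), Col3a1 over Col1a2 (-0.1401), Igfbp7 over Fstl1 (-0.2426), Ccl7 over Cxcl12 (-0.4787), Nr3c1 over Pparg (-0.01168), Col1a1 over Col3a1 (-0.6444) and Tcf21 over Osr1 (0.3359), and moved to 1.21 for Axl over Pdgfra and to 0.59 for Eef1a1 over Lgals1. Each of these follows from the change of length alone. A scale without mitochondrial genes could not be tried, since the analysed rows hold none. Depth limits statements only near the floor of 3 counts. No paired analysis was possible because the report uses 1 group and makes no test.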
